A study of Mus musculus with 6 samples.

Results

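Glycolysis and hypoxia response genes were followed in mouse induced pluripotent stem cell (iPSC) clones with and without a Cas9 knockout of Tet1. The set was named gene by gene and matched on gene symbol in the deposited count table, which gave 35 of 48440 genes, and all 35 were among the 14664 genes that passed the filter on low counts. They comprise 2 glucose importers, 6 genes of the hexose phosphorylation steps, 8 of the triose steps, 4 of lactate and monocarboxylate handling, 4 kinases that set flux, 3 of oxygen sensing and 8 hypoxia-response targets. The knockout group held clones 14, 30 and 33 (knockout replicates 1 to 3), with Tet1 Cas9 mut/mut added to the wt/wt;GFP/wt genotype. The non-targeted group held clones 49, 51 and 52 (non-targeted replicates 1 to 3), with the genotype wt/wt;GFP/wt. All 6 were male clones of the parental line iPSC34.3 and had a strain label that joins B6- Tet1tm1Kohx with the transgene's B6;CBA-Tg(Pou5f1-EGFP)2Mnn/J. Per the labels, the cells had 14 passages in KSR medium before transfection with Cas9 ribonucleoprotein, an sgRNA against Tet1 and an ssODN (a short DNA donor strand), then 12 h with an HRD enhancer. Picked colonies had 4 further passages and grew on feeder cells (MEFs, mouse embryonic fibroblasts), which were separated off before RNA was prepared. The labels carry the same protocol text for both groups and do not say how the non-targeted clones differed in treatment. Since every clone came from 1 parental line, p-values take in only the spread among those clones.

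Glycolysis splits glucose into pyruvate, and lactate dehydrogenase and monocarboxylate carriers turn and export that pyruvate as lactate. The hypoxia-inducible factor HIF1A raises transcription of most glycolytic genes when oxygen falls, while the prolyl hydroxylases EGLN1 and EGLN3 mark it for degradation when oxygen is present and are themselves among its targets. Mouse pluripotent cells are known for a high glycolytic rate, and primed cells are known to rely on it more than naive cells.

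Total counts were between 11937909 and 16189554 per library, all from 1 labelled sequencing batch. Tet1 lies on chromosome 10, 62804570 to 62899118 (GRCm38), and it read 365, 231 and 288 CPM in knockout against 1158, 966 and 1034 CPM in non-targeted clones, each in the order of replicates 1, 2 and 3, which is the order used throughout. CPM is a gene's count scaled to equal library totals with TMM factors. The fold change of Tet1 was -1.84 ± 0.16, which passed DESeq2 but not edgeR (adjusted p = 0.0703). Pou5f1, which marks pluripotent cells, had 684, 692 and 675 CPM in knockout against 744, 748 and 849 CPM in non-targeted clones. It was thus lower in every knockout clone, as were 14.7% of all genes, with a fold change of -0.19 ± 0.07 (edgeR adjusted p = 0.165). Knockout replicate 1 stood apart from the other knockout clones: the median of 17 naive pluripotency genes, as a log2 difference from the mean of the non-targeted clones, stood at -0.05 in it but at -0.75 and -1.44 in the other 2. All 17 of these genes had a fold change below 0. The 29 tested fibroblast markers of 32 listed had medians of 0.61, 0.82 and 1.90 in the knockout replicates and between -0.32 and 0.24 in the non-targeted ones. Their summed level ran from 2505 to 3427 CPM in the knockout and from 2242 to 2500.5 CPM in the non-targeted group, 27 of the 29 had a fold change above 0, and none was at 0 in any library. Of 9 tested primitive streak markers, 7 had a fold change above 0. The clone medians were -0.10, 2.06 and 2.07 in the knockout group, against -0.27 to 0.45 in non-targeted clones. For 13 tested primitive endoderm markers, 9 of them above 0, the knockout medians were 0.49, 0.50 and 0.97, against -0.11 to 0.09 in non-targeted clones. For 14 formative and primed genes, 9 of them above 0, they were -0.03, 0.18 and 0.42, against -0.18 to 0.10.

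As a set, the 35 genes did not shift in 1 direction between the groups. Ldha, the monocarboxylate carrier gene Slc16a1, the muscle phosphofructokinase Pfkm, the regulatory kinase Pfkfb3, the mTOR inhibitor Ddit4 and the collagen hydroxylase P4ha1 rose in DESeq2, while no gene of the set passed edgeR's quasi-likelihood test. Fold changes, given as knockout minus non-targeted on the log2 scale with the standard error, were above 0 for 25 genes and below 0 for 10, with a median of 0.12 against 0.00 over all tested genes. By edgeR at an adjusted p of 0.05, 0 of the 35 were called, as were 0% of all genes. At an unadjusted p of 0.05 edgeR took 9 of the 35, all higher, against 24.8% of all genes (14.0% higher and 10.8% lower). DESeq2 called 6 of the 35, all higher, against 8.65% of the genes it tested (5.50% higher and 3.15% lower). Leaving out 1 library moved the DESeq2 count, and the share of all genes called moved with it. The count was 14 without knockout replicate 1, against 27.4% of all genes. It was 1 without knockout replicate 2 or 3, against 2.11% and 1.96% of all genes. Without non-targeted replicate 2 it was 3, against 5.45%, and without non-targeted replicate 1 or 3 it was 0, against 1.44% and 0.977%. In bulk RNA, fewer cells of a type and less RNA per cell cannot be told apart.

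For 9 genes, or 25.7%, every knockout clone was above every non-targeted clone, a pattern found for 14.8% of all genes: Pfkm, Ldha, Slc16a1, Slc16a3, Pfkfb3, Egln1, Egln3, Ddit4 and P4ha1. No gene of the set was lower in every knockout clone, against 14.7% of all genes. The knockout clones did not share 1 profile. Knockout replicate 1 was the highest of the 6 libraries for 23 of the 35 genes, against 13.9% of all genes, and lay above all non-targeted clones for 27, against 29.9%. It was below all of them for none. Knockout replicates 2 and 3 were both below all non-targeted clones for 12 genes, against 29.1% of all genes, and both above for another 12, against 29.2%. For 8 genes knockout replicate 1 was above and the other 2 knockout clones were below the non-targeted range, against 4.00% of all genes: Slc2a1, Slc2a3, Hk1, Tpi1, Pdk1, Pdk3, Bnip3 and Ankrd37. The set's median log2 distance from the mean of the controls came to 0.35, 0.06 and -0.09 in the knockout clones, and to 0.12, -0.06 and -0.02 in the non-targeted replicates. Summed over the set, 13316, 10135 and 9049 CPM were measured in the knockout clones, against 11409, 10326 and 10829 CPM without the knockout, so the groups overlapped.

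**Figure D1:**
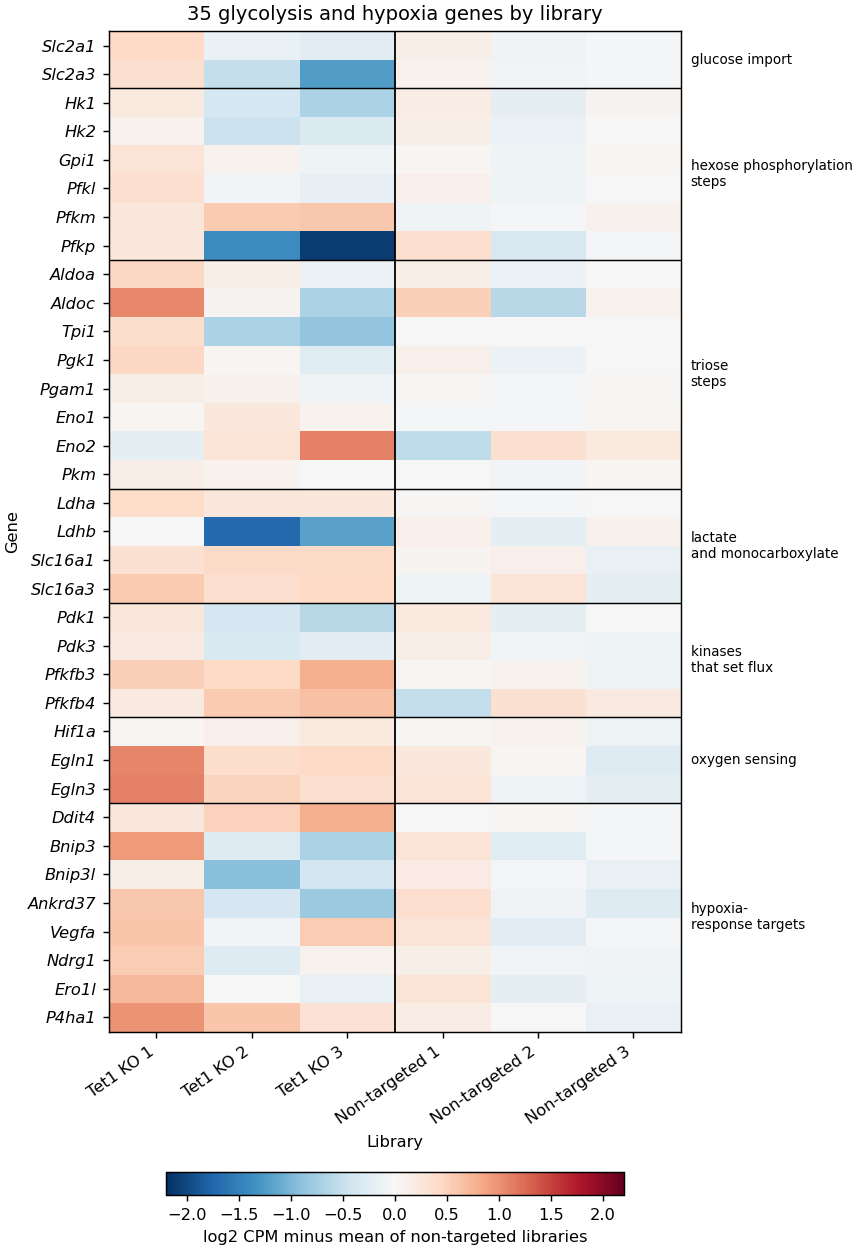
Each of the 35 genes (rows, grouped by role) in each of the 6 libraries (columns); colour is log2 CPM minus the mean of the 3 non-targeted libraries. The first column, knockout replicate 1, is the highest library for 23 genes, and Pfkp and Ldhb are lowest in knockout replicates 2 and 3.

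When edgeR was run without knockout replicate 1, leaving 2 knockout against 3 non-targeted clones, 14 of the 35 genes were called, against 29.1% of all genes. The 6 called higher (15.1% of all genes were) were the same 6 that DESeq2 called with all libraries. The 8 called lower (14.0% of all genes were) were Slc2a3, Hk1, Hk2, Pfkp, Tpi1, Ldhb, Pdk1 and Bnip3l, and the median of the set was then -0.01. Without knockout replicate 2 or 3 instead, edgeR called 0% of all genes, and so none of these 8. The fold changes of the 8 then ran from -0.63 (Ldhb) to -0.02 (Slc2a3). The values without knockout replicate 1 rest on 2 knockout clones and are given below beside the values over all 6 libraries.

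**Figure D2:**
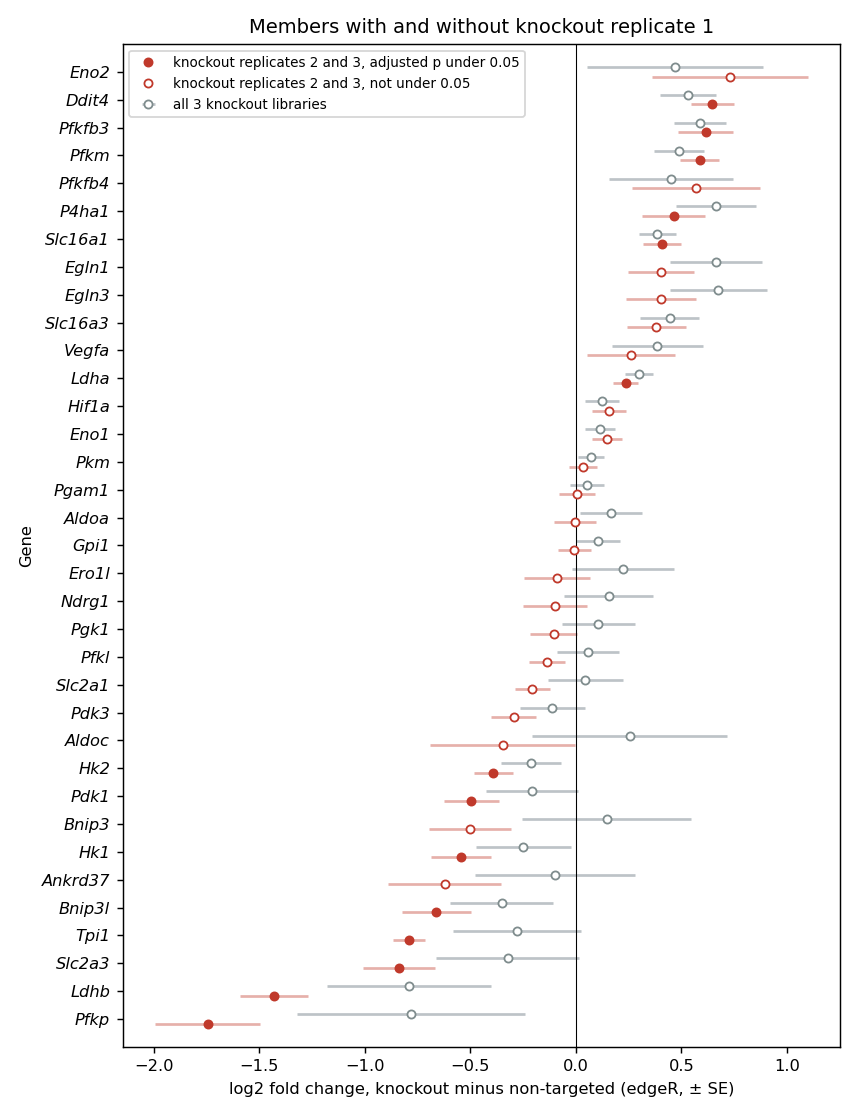
Log2 fold change of each gene, knockout minus non-targeted, over all 6 libraries and without knockout replicate 1 (both from edgeR). Leaving out that clone moved the median of the 35 genes from 0.12 to -0.01, and Pfkp from -0.78 to -1.74.

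The promoter windows of 5 genes are shown because HIF1A is known to act on its targets through a short DNA element, the hypoxia response element. Ldha, Slc16a1, Egln3 and P4ha1 are among the 9 genes with no overlap between groups, and Bnip3 is a hypoxia target whose groups overlapped. Each window holds the 250 bases before a RefSeq transcription start (RefSeq, GRCm38.p6), read 5′ to 3′ on the gene's strand: Ldha at chr7:46845554-46845803 (plus strand), Slc16a1 at chr3:104638414-104638663 (plus strand), Egln3 at chr12:54203875-54204124 (minus strand), P4ha1 at chr10:59323046-59323295 (plus strand) and Bnip3 at chr7:138909507-138909756 (minus strand). The Bnip3 window takes in 13 bases of an annotated Bnip3 exon, and the others hold no annotated exon. Capitals mark ACGTG or GCGTG, the core letters of the element, on either strand.
Ldha: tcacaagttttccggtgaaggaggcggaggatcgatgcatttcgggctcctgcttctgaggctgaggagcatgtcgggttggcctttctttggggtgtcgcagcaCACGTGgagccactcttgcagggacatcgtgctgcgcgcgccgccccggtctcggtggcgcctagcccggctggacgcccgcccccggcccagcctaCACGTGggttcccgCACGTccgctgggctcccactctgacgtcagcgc
Slc16a1: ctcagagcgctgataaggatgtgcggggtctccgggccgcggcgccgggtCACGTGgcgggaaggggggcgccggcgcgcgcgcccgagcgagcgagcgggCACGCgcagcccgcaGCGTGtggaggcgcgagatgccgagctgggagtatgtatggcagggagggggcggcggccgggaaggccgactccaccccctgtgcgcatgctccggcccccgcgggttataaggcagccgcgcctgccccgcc
Egln3: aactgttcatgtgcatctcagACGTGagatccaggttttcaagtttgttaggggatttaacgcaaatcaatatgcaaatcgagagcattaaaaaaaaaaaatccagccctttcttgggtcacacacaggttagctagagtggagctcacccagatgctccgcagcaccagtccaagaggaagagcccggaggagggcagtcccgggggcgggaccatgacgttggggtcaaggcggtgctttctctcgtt
P4ha1: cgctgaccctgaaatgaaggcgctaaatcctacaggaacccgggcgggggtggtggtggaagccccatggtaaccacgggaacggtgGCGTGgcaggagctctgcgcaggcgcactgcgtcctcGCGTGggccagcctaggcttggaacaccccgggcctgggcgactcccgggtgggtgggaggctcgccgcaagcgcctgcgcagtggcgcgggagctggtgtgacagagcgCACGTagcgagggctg
Bnip3: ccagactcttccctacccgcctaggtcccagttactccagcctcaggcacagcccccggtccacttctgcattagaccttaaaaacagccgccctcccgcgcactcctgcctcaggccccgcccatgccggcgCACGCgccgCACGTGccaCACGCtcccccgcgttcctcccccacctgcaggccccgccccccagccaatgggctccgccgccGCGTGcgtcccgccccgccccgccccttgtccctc
The windows held 5, 4, 1, 3 and 5 matches, in that order. Ldha has a second RefSeq start, whose window at chr7:46846832-46847081 (not shown) held 1 match. A CACGTG, the E-box that Myc and other basic helix-loop-helix factors bind, counts as 1 match on each strand. RefSeq promoters were matched for 32 of the 35 genes (Ero1l under its current symbol Ero1a), and Slc2a3, Bnip3l and Ndrg1 were not matched. Of their 46 windows, 37 (80.4%) held at least 1 match, against 38.6% of 32851 windows of all genes, and 23 of the 46 held 2 or more, against 16.7% of all windows. Both motifs contain CG, and the windows also differed in that: the median number of CG pairs was 14 in the set and 6 over all windows. A match describes the letters only.

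The 2 glucose importers, Slc2a3 and Slc2a1, encode the transporters GLUT3 and GLUT1 and were highest in knockout replicate 1. Slc2a3 (chromosome 6, 122727809 to 122801640) had 2721, 1483 and 913 CPM across the knockout clones and 2259, 2039.9 and 2100.1 CPM across the non-targeted ones. Knockout replicate 1 was the highest and replicates 2 and 3 the lowest of the 6 libraries, and the fold change was -0.32 ± 0.34 (edgeR adjusted p = 0.576). Without knockout replicate 1 it was lower in the knockout, at -0.84 ± 0.17 (edgeR adjusted p = 0.00979), whereas it was -0.02 without knockout replicate 3. Slc2a1 had 634, 422 and 391.7 CPM in knockout against 512, 440.0 and 451 CPM in non-targeted clones, so the same clone led and the other 2 lay just below the non-targeted range. Per kilobase of exon, Slc2a3 stood at 294 ± 15.6 CPM and Slc2a1 at 133 ± 11.1 CPM without the knockout (SD, n = 3). The 2 genes summed to 3354, 1905 and 1305 CPM in the knockout clones and 2771, 2479.9 and 2551 CPM in the others.

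In the hexose phosphorylation steps, 1 of the 6 genes was higher in every knockout clone, against 14.8% of all genes. Once knockout replicate 1 was left out, edgeR called 3 of them lower, against 14.0% of all genes. Hk2, the inducible hexokinase that traps glucose in the cell, had 546, 373 and 417 CPM across the knockout clones and 561, 471 and 516 CPM across the non-targeted ones, and Hk1, the housekeeping hexokinase, had 71, 47.2 and 37.9 CPM in knockout against 68.8, 52.7 and 63.9 CPM in non-targeted clones. Without knockout replicate 1 their fold changes were -0.39 ± 0.09 and -0.54 ± 0.14 (edgeR adjusted p = 0.0154 and 0.0236), while over all 6 libraries neither passed (adjusted p = 0.381 and 0.517). Gpi1, which converts glucose-6-phosphate to fructose-6-phosphate, had 707, 607 and 538 CPM across the knockout clones and 589.7, 539.6 and 591 CPM across the non-targeted ones, with overlapping groups. Hk1 lies 424.7 kb from Tet1 on chromosome 10.

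The 3 phosphofructokinase genes, which encode isoforms of the enzyme that commits sugar to glycolysis, took different courses. Pfkm, the muscle isoform (chromosome 15, 98092589 to 98132447), had 50.9, 63.9 and 64.8 CPM in knockout against 40.6, 42.1 and 45.4 CPM in non-targeted clones. All 3 knockout clones were above the non-targeted ones, and Pfkm rose in DESeq2 (adjusted p = 0.0245; edgeR 0.49 ± 0.12, adjusted p = 0.111). A same-strand gene model, Gm26513, shares 341 of its exonic bases (10.2%), and reads there were not counted. Same-strand gene models also overlap Slc2a1, Slc2a3, Slc16a1 and Pfkfb3, outside their exons. Reads overlapping those models were not counted either, since counts cover introns. Pfkp, the platelet isoform (chromosome 13, 6579768 to 6648777), had 216, 69.8 and 43.2 CPM across the knockout clones and 239, 144 and 182 CPM across the non-targeted ones, the widest range in the set on the log2 scale. Knockout replicate 1 was within the non-targeted range and the other 2 lay at the bottom, with a fold change of -0.78 ± 0.54 over all libraries (edgeR adjusted p = 0.392) and -1.74 ± 0.25 without that clone (edgeR adjusted p = 0.00238). It was -0.53 without knockout replicate 2 and -0.40 without replicate 3. Pfkl, the liver isoform and per kilobase of exon the highest of the 3 in the non-targeted clones (38.5 ± 2.87 CPM, against 14.1 ± 3.58 CPM for Pfkp and 12.8 ± 0.734 CPM for Pfkm; SD, n = 3), had 333, 245 and 225 CPM in knockout against 278, 239.5 and 254 CPM in non-targeted clones.

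In the triose steps no gene passed a test over all 6 libraries, and the 8 fold changes ran from -0.28 (Tpi1) to 0.47 (Eno2, which was 0.0049 without knockout replicate 3). Tpi1, the isomerase that interconverts the triose phosphates (chromosome 6, 124810586 to 124814296), had 585, 274 and 243 CPM across the knockout clones and 444, 448 and 445 CPM across the non-targeted ones. The non-targeted clones lay close together, with knockout replicate 1 above them and replicates 2 and 3 well below; the fold change without knockout replicate 1 was -0.79 ± 0.07 (edgeR adjusted p = 0.000431). Aldoa, the aldolase that splits fructose bisphosphate, had 1371, 1090.3 and 909.6 CPM in knockout against 1086, 913 and 1002 CPM in non-targeted clones. Its brain isoform Aldoc had 26.1, 13 and 7.62 CPM across the knockout clones and 18, 8.11 and 13.1 CPM across the non-targeted ones. In both genes knockout replicate 1 was the highest of the 6 libraries and replicate 3 was below all non-targeted clones. Pgk1, which makes the first ATP of the pathway, followed the same order with 224, 169.7 and 137 CPM in knockout against 178, 151 and 165 CPM in non-targeted clones.

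The late steps had small fold changes, apart from the weakly detected Eno2. Pgam1, the phosphoglycerate mutase, had 111, 108 and 96.9 CPM across the knockout clones and 104, 98.4 and 103 CPM across the non-targeted ones. Eno1, the main enolase, had 695, 791 and 715 CPM in knockout against 668, 667 and 698 CPM in non-targeted clones, with all 3 knockout clones near the top of the non-targeted range or above it. Pkm, the pyruvate kinase gene, had 2126, 2046 and 1919 CPM across the knockout clones and 1953, 1851 and 1992 CPM across the non-targeted ones, and its fold change was 0.07 ± 0.06. Eno2, the neuronal enolase, was low, with 1.99, 2.90 and 5.18 CPM in knockout against 1.53, 2.99 and 2.71 CPM in non-targeted clones and overlapping groups. Per kilobase of exon, Pkm at 386 ± 14.5 CPM and Aldoa at 344 ± 29.7 CPM ranked first and second in the set in the non-targeted clones, and their intervals of 1 SD overlapped; Eno2 ranked last at 0.513 ± 0.165 CPM (SD, n = 3). Counts include intronic reads, so these levels are not pure exon densities. Reads that map to several places were left out of the counts, and Pgk1, Tpi1, Pkm, Ldha, Aldoa and Pgam1 have processed copies and Eno1 a near-identical copy, Eno1b, so their levels are uncertain.

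Of the 4 lactate and monocarboxylate genes, 3 were higher in every knockout clone, against 14.8% of all genes. Ldha, the lactate dehydrogenase subunit associated with lactate production (chromosome 7, 46841475 to 46855627), had 1123, 1006 and 999.9 CPM across the knockout clones and 863, 834 and 847 CPM across the non-targeted ones. Every knockout clone was above every non-targeted clone, and Ldha rose in DESeq2 (adjusted p = 0.0367; edgeR 0.30 ± 0.07, adjusted p = 0.109). Slc16a1, which encodes the monocarboxylate carrier MCT1 (chromosome 3, 104638668 to 104658462), had 292, 307 and 308 CPM in knockout against 240.0, 249 and 205 CPM in non-targeted clones. Slc16a1 rose in DESeq2 (adjusted p = 0.0216; edgeR 0.39 ± 0.09, adjusted p = 0.109), and its knockout clones lay close together. Slc16a3, which encodes the lactate exporter MCT4, had 124, 108 and 113 CPM across the knockout clones and 77.8, 103 and 72.6 CPM across the non-targeted ones, a gap of only a few CPM between the groups, and did not pass DESeq2 (adjusted p = 0.0723).

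Ldhb, the subunit associated with lactate use (chromosome 6, 142490249 to 142507957), had 235, 72.3 and 104 CPM in knockout against 256, 205 and 251 CPM in non-targeted clones. Knockout replicates 2 and 3 were far below the rest and replicate 1 was inside the non-targeted range; the fold change was -0.79 ± 0.39 over all libraries (edgeR adjusted p = 0.247) and -1.43 ± 0.16 without knockout replicate 1 (edgeR adjusted p = 0.000964). On the log2 scale, the mean group difference was larger in the balance of the 2 subunits than in Ldha alone. The log2 ratio also spread more among the knockout clones (SD 0.78) than among the non-targeted ones (SD 0.16). Ldhb lies in the chromosome 6 end stretch described below, which was lower in knockout replicates 2 and 3. Ldhb made up 17.3%, 6.71% and 9.42% of the Ldha and Ldhb counts together in the knockout clones and 22.9%, 19.7% and 22.9% in the non-targeted clones. As log2 ratios of counts, Ldha to Ldhb was 2.26, 3.80 and 3.26 against 1.75, 2.03 and 1.75. The mean difference was 1.26 (two-sided exact permutation p = 0.1, the smallest that 3 against 3 allows; Benjamini-Hochberg adjusted p = 0.5 over 10 pairs of related genes).

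Of the other 9 pairs, 1 more had no overlap between groups. The log2 ratio of Slc2a1 to Slc2a3 was -2.10, -1.81 and -1.22 in the knockout clones and -2.14, -2.21 and -2.22 in the non-targeted clones, a mean difference of 0.48 (two-sided exact permutation p = 0.1; adjusted p = 0.5). Without knockout replicate 3 that difference was 0.23. Pfkp to Pfkl was -0.62, -1.81 and -2.38 against -0.21, -0.73 and -0.48, a mean difference of -1.13 with overlapping groups (two-sided exact permutation p = 0.2; adjusted p = 0.667), and of -0.74 without knockout replicate 3. The other 7 pairs, Hk2 to Hk1, Aldoc to Aldoa, Eno2 to Eno1, Pfkfb3 to Pfkfb4, Pdk3 to Pdk1, Slc16a3 to Slc16a1 and Egln3 to Egln1, overlapped, with mean differences between -0.01 and 0.30. Egln1 and Egln3, both high in knockout replicate 1, kept nearly the same ratio in all 6 libraries, from -0.32 to -0.07.

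**Figure D3:**
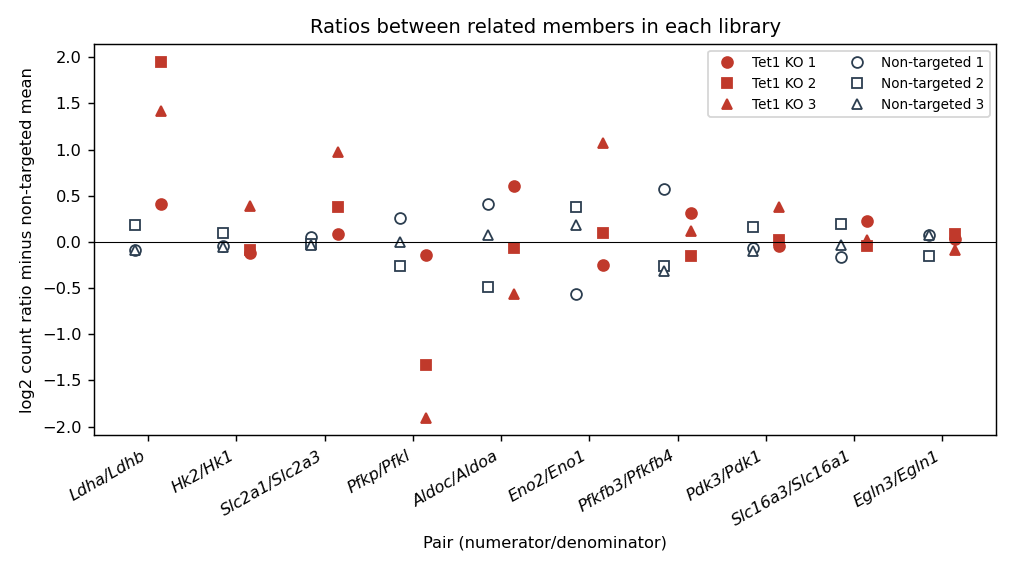
Log2 ratio of counts within 10 pairs of related genes, minus the mean ratio of the non-targeted libraries, a point for each library. The knockout clones lie above all non-targeted clones for Ldha to Ldhb (mean difference 1.26) and Slc2a1 to Slc2a3 (0.48).

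Ldhb, Slc2a3, Tpi1 and the weakly detected Eno2 lie on the end of chromosome 6, where knockout replicates 2 and 3 were lower over a long run of genes. Dividing the 376 scanned genes of that chromosome into 3 pieces gave the same end piece in both clones, 149 genes from 112619850 to 149563329. In that piece the median log2 difference from the mean of the controls came to -1.03 and -1.04 in knockout replicates 2 and 3, -0.03 in knockout replicate 1, and between -0.03 and 0.02 in the non-targeted clones. Tpi1 differed by -0.70 and -0.87 in knockout replicates 2 and 3, and Slc2a3 by -0.52 and -1.22. In knockout replicate 2, 116 of the 149 genes were lower than Tpi1 and 130 were lower than Slc2a3, while in knockout replicate 3 these numbers were 96 and 45, so Slc2a3 was less reduced than most genes of the piece in 1 clone and more reduced than most in the other. Ldhb differed by -1.71 and -1.18, with 8 of the 149 genes lower in knockout replicate 2 and 52 in replicate 3. Tpi1 was thus among the less reduced genes of the piece in knockout replicate 2, and Ldhb among the most reduced. Eno2, too low in level to be scanned, was not lower in these clones, at 0.30 and 1.11. Hk2, on the same chromosome but outside the piece, differed by -0.46 and -0.30. Bnip3l lies on chromosome 14 in a run of 45 genes from 59201209 to 70351425 whose median was -0.99 in knockout replicate 2, -0.21 in replicate 3 and 0.02 in replicate 1. Leaving out the 5 genes of the set in these stretches, the median fold change of the rest was 0.15 over all libraries. The part of the stretches in the differences of their genes was not tested.

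**Figure D4:**
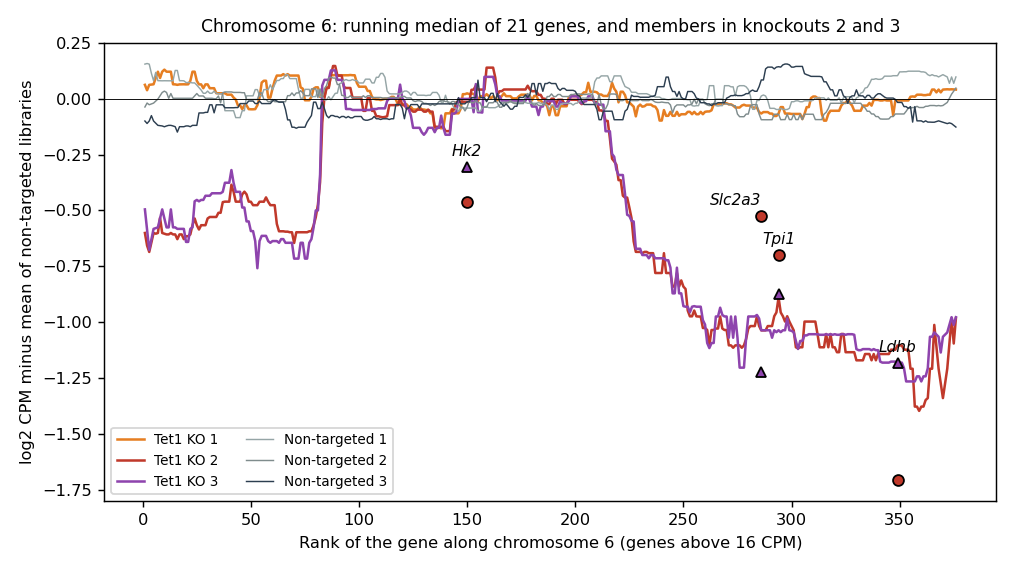
Running median over 21 genes of log2 CPM minus the control mean (each control against its other 2), by gene rank along chromosome 6, a line for each library; points show Hk2, Slc2a3, Tpi1 and Ldhb in knockout replicates 2 (circles) and 3 (triangles). Knockout replicates 2 and 3 have medians of -1.03 and -1.04 in the end piece, and replicate 1 has -0.03.

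Of the 4 kinases that set flux, 1 passed a test over all 6 libraries. Pfkfb3, which makes the fructose-2,6-bisphosphate that activates phosphofructokinase (chromosome 2, 11471433 to 11554077), had 41.9, 39.4 and 50.04 CPM across the knockout clones and 29.8, 30.7 and 26.9 CPM across the non-targeted ones. The groups did not overlap, and Pfkfb3 had the smallest adjusted p of the set in both tools: it rose in DESeq2 (adjusted p = 0.0075), with 0.59 ± 0.12 and an adjusted p of 0.106 in edgeR. Its relative Pfkfb4 was low, with 3.30, 4.30 and 4.53 CPM in knockout against 1.94, 3.62 and 3.27 CPM in non-targeted clones and overlapping groups. Pdk1, which blocks the conversion of pyruvate to acetyl-CoA and is a HIF1A target, had 328, 216 and 182 CPM across the knockout clones and 321, 238 and 279 CPM across the non-targeted ones; without knockout replicate 1 it was lower, at -0.50 ± 0.13 (edgeR adjusted p = 0.0234). Pdk3, another pyruvate dehydrogenase kinase, had 60.6, 41.9 and 45 CPM in knockout against 58.4, 51.1 and 49.8 CPM in non-targeted clones. In both Pdk genes knockout replicate 1 was highest and replicates 2 and 3 were below the non-targeted range.

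Among the oxygen sensing genes, both prolyl hydroxylases were higher in every knockout clone and Hif1a was not. Hif1a itself had 206, 215 and 232 CPM across the knockout clones and 203, 210.4 and 185 CPM across the non-targeted ones, a fold change of 0.12 ± 0.08 with overlapping groups. Egln1 (chromosome 8, 124908596 to 124949254) had 51.8, 32.3 and 33.4 CPM in knockout against 28.8, 25.4 and 20.2 CPM in non-targeted clones. Egln3 (chromosome 12, 54178981 to 54203860) had 47.4, 30.7 and 28 CPM across the knockout clones and 27.1, 20.4 and 19 CPM across the non-targeted ones. Knockout replicate 1 was well above all other libraries for both, and replicates 2 and 3 were above the non-targeted clones by a smaller step. Their fold changes were 0.66 ± 0.22 and 0.67 ± 0.23 and passed neither tool (edgeR adjusted p = 0.143 and 0.148; DESeq2 adjusted p = 0.058 and 0.0662). Without knockout replicate 1 they were 0.40 ± 0.15 and 0.40 ± 0.17 (edgeR adjusted p = 0.0818 and 0.101).

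Of the 8 hypoxia-response targets, 2 rose in DESeq2, which called 5.50% of all genes higher. P4ha1, a collagen prolyl hydroxylase subunit (chromosome 10, 59323296 to 59373304), had 41.2, 31.9 and 25.7 CPM in knockout against 23.3, 20.6 and 18.6 CPM in non-targeted clones. It was highest in knockout replicate 1 and above the non-targeted clones in all 3 (DESeq2 adjusted p = 0.033; edgeR 0.66 ± 0.19, adjusted p = 0.125). Ddit4, also called Redd1, an inhibitor of mTOR complex 1 that other stresses induce too (chromosome 10, 59949675 to 59951770), had 60.1, 71.9 and 86.1 CPM across the knockout clones and 50.4, 51.2 and 49.3 CPM across the non-targeted ones. Here the order of the knockout clones was the reverse, with replicate 1 lowest, and the non-targeted clones were almost equal (DESeq2 adjusted p = 0.0245; edgeR 0.53 ± 0.13, adjusted p = 0.114). P4ha1 and Ddit4 lie 3431 and 2853 kb from Tet1 on chromosome 10. Of the 63 tested genes within 5 Mb on each side of Tet1, 34 had a fold change above 0, with a median of 0.05, and 17 had groups without overlap, where over all genes 14.8% were higher and 14.7% lower without overlap. The fibroblast markers, which include collagen genes, had medians above those of the non-targeted clones in every knockout clone. Among the knockout clones their median was lowest in replicate 1, but their summed level, at 2712, 2505 and 3427 CPM, was lowest in replicate 2. The part of these markers in the difference of P4ha1 was not tested.

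The other 6 targets overlapped between groups. Bnip3, a mitophagy receptor (chromosome 7, 138890836 to 138909519), had 56.2, 24 and 18 CPM in knockout against 35.9, 24.1 and 28.8 CPM in non-targeted clones. Knockout replicate 1 stood well above the other libraries and replicates 2 and 3 below the non-targeted clones, replicate 2 only just, so the fold change of 0.15 ± 0.40 describes neither. Its relative Bnip3l had 62.6, 30.2 and 42.9 CPM across the knockout clones and 65.4, 56.8 and 51.2 CPM across the non-targeted ones, and -0.66 ± 0.16 without knockout replicate 1 (edgeR adjusted p = 0.019). Ankrd37 had 11.7, 5.96 and 4.31 CPM in knockout against 10.01, 7.30 and 6.32 CPM in non-targeted clones, with the same order of the knockout clones as Bnip3. Vegfa, the vascular growth factor, had 40.3, 25.1 and 38.5 CPM across the knockout clones and 32, 22 and 25.6 CPM across the non-targeted ones. Ndrg1 had 33, 18.4 and 23.7 CPM in knockout against 24.5, 21.6 and 21.4 CPM in non-targeted clones, and Ero1l, the endoplasmic reticulum oxidase, had 80.7, 49.6 and 44.2 CPM across the knockout clones and 60.9, 42.7 and 45.9 CPM across the non-targeted ones. Knockout replicate 1 was the highest of the 6 libraries for 8 of the 11 oxygen sensing and hypoxia target genes, the exceptions being Hif1a, Ddit4 and Bnip3l.

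**Figure D5:**
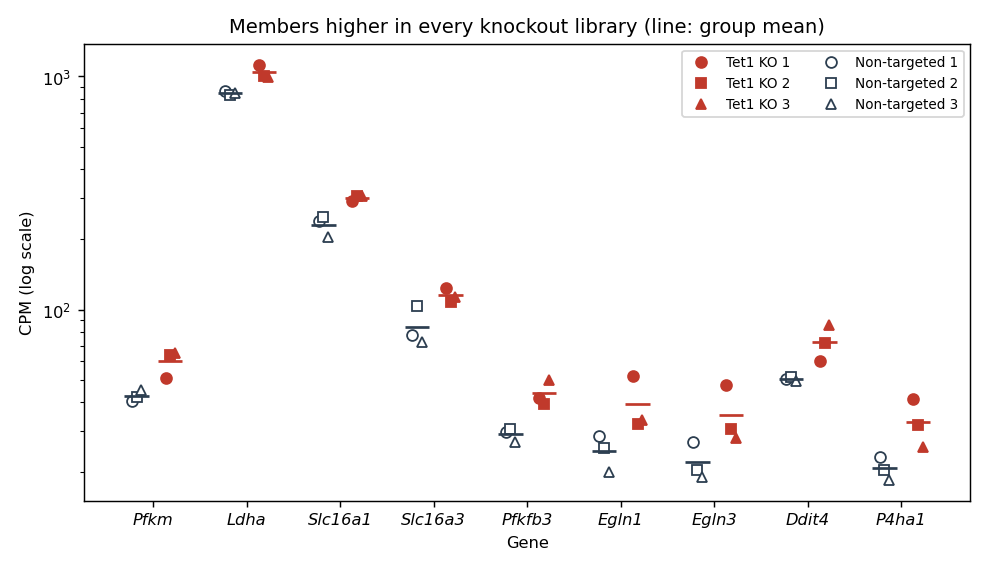
CPM on a log axis of the 9 genes whose knockout and non-targeted clones did not overlap, a point for each library and a line at each group mean. Egln1, Egln3 and P4ha1 are highest in knockout replicate 1, while Ddit4 and Pfkfb3 are highest in knockout replicate 3.

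Related genes outside the 35 were counted in lists drawn up beside them, and each DESeq2 count is to be read against the 5.50% of all genes called higher and 3.15% called lower. Of 33 other hypoxia-response targets tested, 21 had a fold change above 0 and 12 below, with a median of 0.09; 6 rose and 1 fell in DESeq2. P4ha2, another alpha subunit of the same hydroxylase type, had 19.5, 12.7 and 15.3 CPM in knockout against 8.15, 8.42 and 6.19 CPM in non-targeted clones and rose in DESeq2 (adjusted p = 0.00165). Adm, encoding adrenomedullin, had 4.45, 5.05 and 6.26 CPM across the knockout clones and 1.37, 2.81 and 1.74 CPM across the non-targeted ones (DESeq2 adjusted p = 0.00805), and Cited2, an inhibitor of HIF1A transactivation, had 30.7, 49.6 and 48.4 CPM in knockout against 25.4, 23 and 24 CPM in non-targeted clones (DESeq2 adjusted p = 0.00548); both rose. Of 11 genes of the HIF machinery, 5 were above 0 and 6 below, with a median of -0.01, and DESeq2 called none, with 1 at an unadjusted edgeR p under 0.05. Hif3a, an alternative alpha subunit, had 9.97, 15.6 and 18.4 CPM across the knockout clones and 7.75, 12.2 and 7.23 CPM across the non-targeted ones. Arnt2, a partner subunit, had 16.9, 16.6 and 21.9 CPM in knockout against 11.6, 16.2 and 13.8 CPM in non-targeted clones. Epas1, which encodes HIF2A, had 185, 73.4 and 80.7 CPM across the knockout clones and 195, 152 and 188 CPM across the non-targeted ones, so only knockout replicates 2 and 3 were low.

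Other glycolysis isoenzymes and transporters gave 17 tested genes, 6 above 0 and 11 below, with a median of -0.16, and 1 fell in DESeq2. That gene was Tigar, a fructose-2,6-bisphosphatase on the chromosome 6 end piece, with 133, 67.7 and 48.1 CPM in knockout against 151, 149 and 162 CPM in non-targeted clones (DESeq2 adjusted p = 0.0486). Bsg, the chaperone of the SLC16A carriers, had 312, 299.9 and 302 CPM across the knockout clones and 286, 268 and 269.8 CPM across the non-targeted ones, and Bpgm, the bisphosphoglycerate mutase, had 28.3, 26.1 and 24.4 CPM in knockout against 28.1, 32.9 and 36.4 CPM in non-targeted clones. Bpgm lies in the start piece of chromosome 6, whose median log2 difference was -0.57 and -0.59 in knockout replicates 2 and 3. The part of that piece in the difference of Bpgm was not tested. Mitochondrial pyruvate entry had 8 of 14 genes above 0, with a median of 0.04. Pcx, pyruvate carboxylase, fell in DESeq2 (adjusted p = 0.0302), with 19.9, 20.2 and 15.5 CPM across the knockout clones and 27.1, 24.7 and 28.2 CPM across the non-targeted ones. Dlat and Pdpr, a subunit and a regulator of pyruvate dehydrogenase, had 112, 122 and 132 CPM in knockout against 97.9, 104 and 102 CPM in non-targeted clones, and 27.7, 39.2 and 43 CPM across the knockout clones and 26.9, 26 and 23.6 CPM across the non-targeted ones. Neither passed DESeq2 (adjusted p = 0.124 and 0.0773).

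In the pentose phosphate and side branches of glycolysis, 13 of 20 genes were above 0, with a median of 0.07, and 2 rose in DESeq2. These were Gfpt1, the entry enzyme of hexosamine synthesis, with 55.3, 53.6 and 54.9 CPM in knockout against 42, 42.6 and 37.6 CPM in non-targeted clones (DESeq2 adjusted p = 0.0149), and Phgdh, the first enzyme of serine synthesis, with 80.5, 102 and 103 CPM across the knockout clones and 63.8, 76 and 68 CPM across the non-targeted ones (DESeq2 adjusted p = 0.04). Gpd1, glycerol-3-phosphate dehydrogenase, was low, with 2.53, 2.40 and 2.44 CPM in knockout against 1.05, 1.43 and 0.904 CPM in non-targeted clones. Of 20 ATF4 and endoplasmic reticulum stress genes, 15 were above 0, with a median of 0.17, and 4 rose in DESeq2, against 5.50% of all genes. Among them were Atf5, with 31.4, 40.3 and 38.2 CPM across the knockout clones and 21, 18 and 19.9 CPM across the non-targeted ones (DESeq2 adjusted p = 3.1e-05), and the chaperones Hspa5, with 994, 1085 and 993 CPM in knockout against 779.5, 871 and 776 CPM in non-targeted clones (DESeq2 adjusted p = 0.0214), and Hsp90b1, with 964, 958 and 928 CPM across the knockout clones and 743, 801 and 699 CPM across the non-targeted ones (DESeq2 adjusted p = 0.0125). In Atf5 and Hspa5, as in Ddit4, knockout replicate 1 was not the highest clone, whereas in Hsp90b1 it was.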

How the data were processed

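Polyadenylated RNA of 3 Tet1 knockout and 3 non-targeted clones was measured. The deposited values are raw counts by gene, whole numbers; per the file headers, the authors made them with featureCounts 1.6.2, reverse stranded, over whole gene bodies with introns, on GENCODE M15 (GRCm38.p5). Reads that map to several places or overlap several genes were left out, as the header's command has no option to keep them. Per the submitters' processing notes, reads were handled with HISAT2 2.1.0, featureCounts 1.5.3 and DESeq2 1.18.1 on mm10. No row without a gene name entered the totals.

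Genes were kept with edgeR's filterByExpr (minimum count 10, minimum total 15), scaled with TMM and compared by group alone in edgeR's quasi-likelihood test; p-values were adjusted by Benjamini-Hochberg over all 14664 tested genes at 0.05. The biological coefficient of variation was 0.188. DESeq2 was run on all 48440 genes. Ratios of related genes used log2(count + 0.5). Exonic lengths came from GENCODE M21, on the same build. Stretches were sought with a running median of 21 genes above a log2 CPM of 4 and kept at 20 or more genes beyond 0.35. The edgeR step was tested on simulated data. The genes and lists were chosen with earlier results of these data known; all 35 genes, Tet1, and from each list up to 3 genes with the smallest edgeR p, are named, except that the cell type lists are given as counts and medians only. Tests ran in edgeR 4.0.16 (R 4.3.3), with DESeq2 1.42.0 and limma 3.58.1 beside it. Alternatives were limma voom, other size factors, no filter, a replicate block and each library left out in turn.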

Additional observations from a re-analysis of the deposited data

How the results depend on the processing

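With 3 clones a group, small differences cannot be told from the spread between clones, and no exact test of a ratio can go below 0.1. Of 420 alternative fold changes of the 35 genes, 384 kept their direction and side of the threshold, 20 kept the direction and passed the threshold, and 16 in 10 genes changed sign, 14 of those on leaving out a library.

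Tet1, at -1.84 and not past the threshold in edgeR (adjusted p = 0.0703), passed it in DESeq2 (-1.84), limma voom (-1.85), edgeR without the filter (-1.85), edgeR with a replicate block (-1.86) and edgeR without knockout replicate 1 (-2.02). The count of genes called among the 35 was 0 in edgeR and 6 in DESeq2. Leaving out each library gave 0 to 14 in both tools. The 14 came without knockout replicate 1, where edgeR called 29.1% and DESeq2 27.4% of all genes. With any other library left out, edgeR called 0% of all genes. DESeq2 called 1 without knockout replicate 2 (Pfkfb3) and 1 without knockout replicate 3 (P4ha1), against 2.11% and 1.96% of all genes. It called 0 without non-targeted replicate 1 or 3, against 1.44% and 0.977%. Without non-targeted replicate 2 it called 3 (Slc16a1, Slc16a3 and Pfkfb3), against 5.45%. limma voom called 0 of the 35 and 1 of all 14664 genes, with 10 of the 35 at an unadjusted p under 0.05. The median of the 35 fold changes ran from -0.01 to 0.19 over the libraries left out. The number of the 35 lower in every knockout clone ran from 0 to 12, the 12 without knockout replicate 1, where the share of all genes was 29.1% in place of 14.7%. The number higher ran from 9 with all libraries (14.8% of all genes) to 13 without knockout replicate 3 (17.8% of all genes). Without knockout replicate 1 it was 12, against 29.2% of all genes.

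The replicate numbers did not pair the samples: deviations of same-numbered clones correlated at 0.458, 0.109 and -0.0239, and knockout replicate 3 correlated best with non-targeted replicate 2. With the replicate block edgeR called 0 of the 35 and 3 of all genes, and the exact p of the block for the ratios of Ldha to Ldhb, Slc2a1 to Slc2a3 and Pfkp to Pfkl was 0.25.

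Without knockout replicate 1 the fold change turned to -0.21 in Slc2a1, -0.0073 in Gpi1, -0.13 in Pfkl, -0.0056 in Aldoa, -0.35 in Aldoc, -0.11 in Pgk1, -0.50 in Bnip3, -0.098 in Ndrg1 and -0.090 in Ero1l. Without non-targeted replicate 2 it was -0.0013 in Slc2a1 and -0.0045 in Aldoc. Bnip3 was -0.0031 in limma voom and -0.00028 with the replicate block. Ankrd37 turned to 0.032, 0.17 and 0.10 without knockout replicates 2 and 3 and non-targeted replicate 1. Over the libraries left out, the group difference in log2 ratio ran from 0.92 to 1.68 for Ldha to Ldhb, 0.23 to 0.67 for Slc2a1 to Slc2a3, -1.62 to -0.74 for Pfkp to Pfkl, -0.10 to 0.15 for Hk2 to Hk1, -0.32 to 0.27 for Aldoc to Aldoa, -0.077 to 0.58 for Eno2 to Eno1, -0.065 to 0.38 for Pfkfb3 to Pfkfb4, -0.013 to 0.20 for Pdk3 to Pdk1, -0.012 to 0.17 for Slc16a3 to Slc16a1 and -0.067 to 0.061 for Egln3 to Egln1. The cause of these changes was not tested beyond the clones' own values given above.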
